A study of Mus musculus with 16 samples.

Results

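Nnt, the gene of nicotinamide nucleotide transhydrogenase, was 1 of 54146 genes listed in every library of an RNA-seq series from mouse pancreatic islets. It was picked by its name in the gene identifier, ENSMUSG00000025453.18_Nnt, and the gene was chosen with earlier results of these data known. The gene lies on the minus strand of chromosome 13, from 119335448 to 119408997 in mm10 (GRCm38), with 5 annotated transcripts in GENCODE M21. All 91 libraries and all 8 strains gave a value for it.

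The enzyme sits in the inner mitochondrial membrane and uses the proton gradient to pass reducing equivalents from NADH to NADP+, which supplies NADPH to the matrix. Matrix NADPH feeds the glutathione and thioredoxin systems that remove peroxide. The C57BL/6J mouse is known to carry a deletion of several internal exons of Nnt, and its loss has been studied in beta cells for its link to insulin secretion and glucose tolerance.

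The libraries came from whole islets of inbred mice aged 26 weeks, all of which had been on a high-fat diet, with both sexes in every strain. By label and in the short names used here, there were 10 libraries of 129S1_SvImJ (129), 14 of A_J (AJ), 18 of C57BL/6J (B6), 14 of CAST_EiJ (CAST), 10 of NOD_ShiLtJ (NOD), 4 of NZO_HlLtJ (NZO), 5 of PWK_PhJ (PWK) and 16 of WSB_EiJ (WSB). NZO had 3 female libraries and 1 male library, and PWK had 1 female and 4 male. The comparison made here asks how far the islet Nnt transcript differs between B6 and each other strain. Every B6 library carries the B6 genome as a whole, so the Nnt deletion cannot be told apart from any other difference between B6 and another strain.

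Library totals ran from 16928552 to 35196145 expected counts, and Nnt itself had between 336.5 and 2389 of them in a library, so counting error was small beside the spread between libraries. Islet endocrine markers (Ins1, Ins2, Iapp, Gcg, Sst, Ppy and Chga) made up between 18.1% and 59.2% of the summed TPM (transcript abundance scaled to a fixed total per library) in a library, and acinar markers of the exocrine pancreas (8 genes) between 0.162% and 28.3%. In 12 libraries, of which 6 were from 129, 4 from WSB and 2 from NOD, the counts of Xist and Y-linked genes were opposite to the labelled sex. The libraries of 129, NOD, NZO and PWK carry running numbers from 66 to 100 and those of the other 4 strains numbers from 1 to 65, and where B6 is set beside 129, NOD, NZO or PWK, strain and number range cannot be told apart. In 6 CAST libraries (CAST-F-2, CAST-F-3, CAST-F-5, CAST-M-4, CAST-M-7 and CAST-M-8) the enolase gene Eno1 stood apart, with 1130 to 1569 normalized counts (counts scaled to a common library size), against 317 to 419 in the other 8 and 2707 to 3544 in B6. The same 6 lay between the other CAST libraries and B6 in the related gene Eno1b as well, with 964 to 1346 normalized counts against 1933 to 2601 and 0 to 44.1, and their median of Nnt was 1026 normalized counts, against 2109 in the other 8 and 602.9 in B6. Eno1b shares 74.7% of its stretches of 100 bases with other genes, most with Eno1, so it is no separate sign. No cause was tested, and the level of CAST and the edgeR differences from CAST named below are given with and without these 6. The submitters collected the animals in several waves, but the labels do not tie a library to a wave.

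The reference genome is that of C57BL/6J, so its annotation holds Nnt as B6 carries it. The longest coding transcript, Nnt-202, has 17 exons, 3464 bases and an open reading frame of 835 codons, and the exons lost in B6 would fall between its exons 6 and 7, which are parted by an intron of 4715 bases. The 3 junctions below, of the annotated transcripts, are shown to make plain what a read had to match, with the last 30 bases of the upstream exon in lower case and the first 30 bases of the downstream exon in capitals. They were read from the GENCODE M21 transcripts, whereas the study counted reads on GENCODE vm18, so what the reads were matched to may differ in detail. The first is the junction of exons 6 and 7, the second is the one after it, and the third is the junction that sets apart Nnt-201, which skips 2 exons of Nnt-202.
Nnt-202 exons 6 and 7: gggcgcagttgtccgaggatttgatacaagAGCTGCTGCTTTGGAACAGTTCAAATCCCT
Nnt-202 exons 7 and 8: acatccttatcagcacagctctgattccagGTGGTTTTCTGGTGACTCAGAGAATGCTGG
Nnt-201 exons 7 and 8: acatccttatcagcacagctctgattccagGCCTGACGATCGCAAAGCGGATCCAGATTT
The first junction stands in 3 of the Nnt transcripts, whereas the third stands in 1. A read of a full-length Nnt transcript of another strain that fell within the exons missing from B6 had no annotated transcript to match, and only a transcript without those exons could give a read across the junction of exons 6 and 7. The values below therefore count reads that match the annotated B6 form of Nnt.

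A second annotated gene covers the same exons. ENSMUSG00000116207.1, whose only transcript Nnt-206 runs from 119335528 to 119408952 on the same strand, is contained whole in Nnt-202, and each of its 3240 windows of 100 bases also occurs in Nnt. Of the 7032 windows of Nnt, 53.9% occur in Nnt alone, and no transcript of any other gene shares a window with it. RSEM, which divides reads that match several transcripts, split the reads of this locus between the 2 genes. The sum of the 2 expected counts was a whole number to within 0.01 in 91 of 91 libraries, but Nnt alone was not whole in 50. The second gene received no count in 39 libraries and up to 49.7% of the sum in the other 52 (129-M-82).

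**Figure D1:**
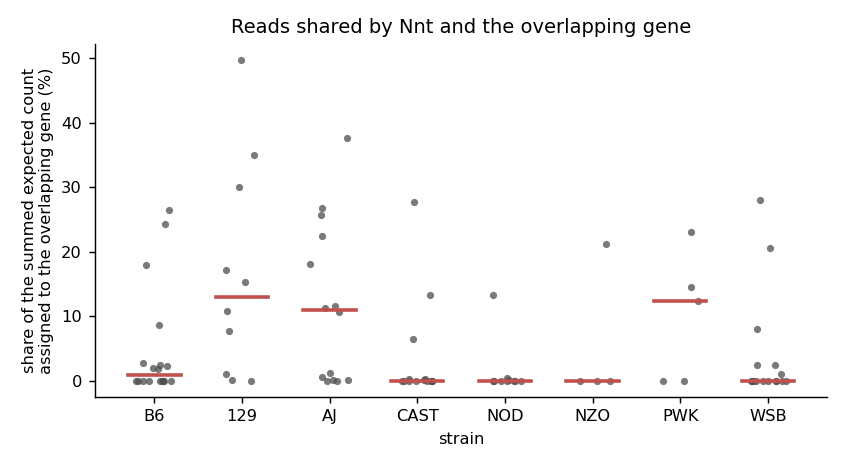
Share of the summed expected count of Nnt and the overlapping gene that was assigned to the overlapping gene (y axis, percent), 1 point for each of the 91 libraries by strain, with the red line at the strain median. The medians are 13.04% in 129, 12.4% in PWK and 10.99% in AJ, against 0.918% in B6, and single libraries reach 49.7%.

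The share assigned to the second gene was over 5% in 7 of 10 libraries of 129, 8 of 14 of AJ, 3 of 5 of PWK and 4 of 18 of B6, but in 1 of 10 of NOD. Its median was 13.04% in 129, 10.99% in AJ, 12.4% in PWK and 0.918% in B6. A low value of Nnt alone was in some libraries a matter of this split. In 129-M-82 Nnt had 12.31 TPM, the lowest of its strain, and 24.08 TPM with the second gene added, and in AJ-F-61 the values were 12.03 and 18.98 TPM. The sum of both genes is therefore given beside Nnt for the main strain, number range and sex comparisons, and alternatives are for Nnt alone unless the sum is named.

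Nnt was lowest in B6, where its mean level was between 33.1% (PWK) and 42.8% (NOD) of that in another strain, and no B6 library reached the TPM of any library of another strain. In B6 the 18 libraries ran from 5.62 TPM to 8.99 TPM with a median of 7.31 TPM, and the mean was 7.39 TPM ± 1.06 (SD, n = 18). The lowest of the 73 other libraries was CAST-F-2, with 9.09 TPM. With the second gene added, B6 ran from 5.76 TPM to 9.05 TPM, and the lowest other library again was CAST-F-2, with 9.10 TPM. The acinar share of TPM also differed between strains, with a median of 5.90% in B6, 0.559% in AJ, 1.91% in 129, 6.35% in WSB, 7.04% in NZO, 8.71% in CAST, 9.51% in PWK and 9.75% in NOD. With the acinar marker level as a covariate in edgeR, the log2 fold change of B6 minus the other strain ran from -1.36 (CAST) to -1.06 (NOD), with adjusted p-values of at most 1.49e-10, and without the 6 CAST libraries apart in Eno1 it was -1.69 (SE 0.10) for CAST. Markers of 2 other cell types had their lowest strain median in B6, as Nnt did. The 4 endothelial markers (Pecam1, Cdh5, Kdr and Plvap) summed to a median of 123.6 TPM in B6, from 56.4 to 171.75, and to strain medians of 125.6 (CAST) to 221.4 (NZO) elsewhere, with libraries from 90.8 to 325.04. The 4 fibroblast and stellate markers (Col1a1, Col3a1, Pdgfrb and Dcn) summed to a median of 15 TPM in B6, from 8.29 to 30.5, and to strain medians of 18.9 (129) to 102.8 (NOD) elsewhere, with libraries from 12.5 to 279.2. No marker of either list was at 0 in every library of a strain, the ranges of B6 and the others overlapped for both, and their part in the difference in Nnt was not tested. Of 15204 genes tested, 0.0723% had every B6 library below every other library by TPM.

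In NZO the 4 libraries had 17.99, 20.20, 18.30 and 20.55 TPM. In PWK the 5 libraries had 27.32, 22.07, 22.23, 22.93 and 17.10 TPM. All 9 of these lay above the B6 range. The 10 libraries of 129 had a lowest value of 12.31 TPM, a median of 20.8 TPM and a highest of 24.49 TPM. In AJ the lowest, median and highest of 14 libraries were 12.03, 18.4 and 23.44 TPM. Values in WSB lay at 11.19, 17.1 and 21.78 TPM over 16 libraries, and those in NOD at 12.74, 17.5 and 22.40 TPM over 10. These ranges overlapped each other along most of their length. CAST was the widest, from 9.09 TPM to 28.45 TPM with a median of 18.2 TPM over 14 libraries, so that it held both the lowest and the highest library outside B6.

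**Figure D2:**
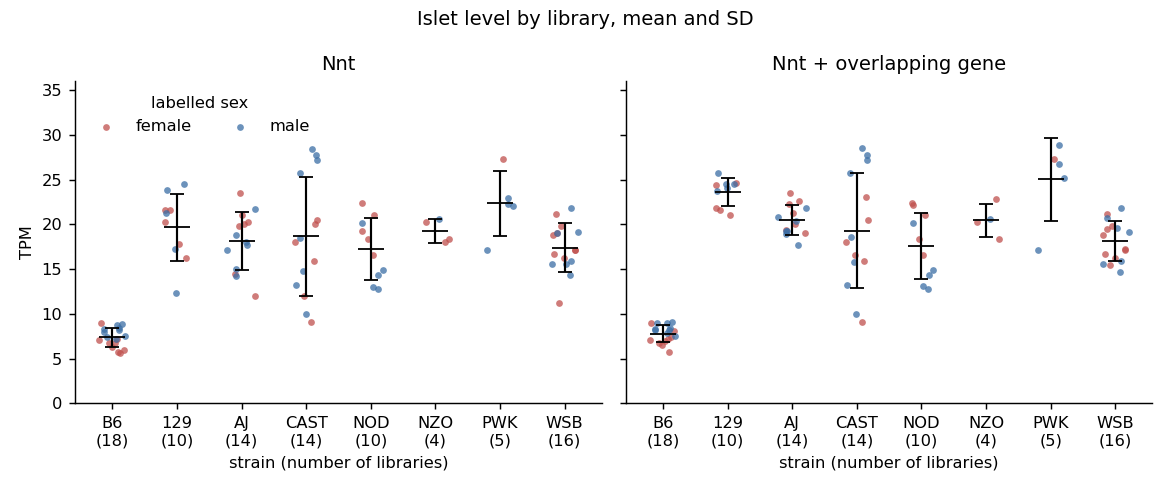
TPM (y axis) of Nnt (left) and of Nnt plus the overlapping gene (right) in each of 91 libraries, by strain and coloured by labelled sex. Horizontal marks and bars give mean and SD. All 18 B6 libraries sit between 5.62 and 8.99 TPM on the left, below every other library, and the SD on the right is smaller in 129 (1.56 against 3.74) and AJ (1.66 against 3.26) but larger in PWK (4.63 against 3.63), NOD (3.74 against 3.45) and NZO (1.85 against 1.30).

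By mean TPM the strains ran in the order PWK (22.3 ± 3.63, n = 5), 129 (19.7 ± 3.74, n = 10), NZO (19.3 ± 1.30, n = 4), CAST (18.7 ± 6.61, n = 14), AJ (18.1 ± 3.26, n = 14), WSB (17.4 ± 2.69, n = 16), NOD (17.3 ± 3.45, n = 10) and B6 (7.39 ± 1.06, n = 18), with the SD after each mean. The mean of each of the 7 other strains was between 2.34 (NOD) and 3.02 times (PWK) that of B6. With the second gene added it was between 2.26 and 3.22 times. A two-sided permutation test of the difference in mean TPM with 100000 resamples gave p = 2e-05, the smallest these resamples can give, against 129, AJ, CAST, NOD and WSB. The exact permutation test gave p = 0.000273 against NZO and p = 5.94e-05 against PWK, and the highest of the 7 Benjamini-Hochberg adjusted values was 0.000273.

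Expected counts, rounded and scaled by the upper quartile of each library, were tested with edgeR's quasi-likelihood test with strain and sex as terms and all 91 libraries in 1 fit, and p-values were adjusted over the 15204 genes tested. On this scale, where a normalized count is a count at the mean scaled library size, B6 had 606.6 normalized counts ± 111 (SD, n = 18) of Nnt, and the means of the other strains ran from 1257 (AJ) to 1642 (CAST). The log2 fold change of B6 minus the other strain was -1.11 (SE 0.13) for 129, -1.05 (SE 0.12) for AJ, -1.43 (SE 0.12) for CAST, -1.13 (SE 0.13) for NOD, -1.27 (SE 0.17) for NZO, -1.36 (SE 0.16) for PWK and -1.26 (SE 0.12) for WSB. Each of the 7 passed the threshold, with edgeR adjusted p-values from 2.09e-18 (CAST) to 1.86e-09 (NZO). With the second gene added the 7 log2 fold changes ran from -1.45 (PWK) to -1.08 (NOD), and their standard errors fell from between 0.12 and 0.17 to between 0.09 and 0.13.

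The strains differ widely in islet RNA, so a call by itself was common. Of the 15204 genes, the share called lower in B6 was 23.8% against 129, 21.5% against AJ, 23.7% against CAST, 34.8% against NOD, 21.6% against NZO, 26.4% against PWK and 24.8% against WSB. The share called higher in B6 was 16.8% against 129, 24% against AJ, 25.1% against CAST, 29.9% against NOD, 15.6% against NZO, 23.1% against PWK and 25% against WSB. A strain F test called 97.4% of all genes, among them Nnt (edgeR adjusted p = 1.41e-17). The share of genes with a lower log2 fold change than Nnt was 3.90% against 129, 3.30% against AJ, 2.63% against CAST, 13.6% against NOD, 8.27% against NZO, 5.83% against PWK and 3.71% against WSB. For B6 minus the mean of the other 7 strains the log2 fold change was -1.23 (SE 0.10, edgeR adjusted p = 2.34e-19), where 53.2% of genes were called in either direction and 27.6% were called lower. Of the calls in this contrast 51.9% were lower in edgeR, against 82.4% in limma on log2(TPM + 1) and 83.2% on log2(FPKM + 1), so the split of calls by direction depends on the scale. Nnt came 566th from the lowest of 15204 log2 fold changes in this contrast. Among the 3685 other genes whose mean level over the 91 libraries was at least that of Nnt, 4 had a lower log2 fold change. These were Ctrc, a protease of acinar cells (-4.25), Angptl7 (-3.97), the fibrillar collagen Col3a1 of stromal cells (-1.40) and Sfi1 (-1.31), which were named after their values had been seen.

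**Figure D3:**
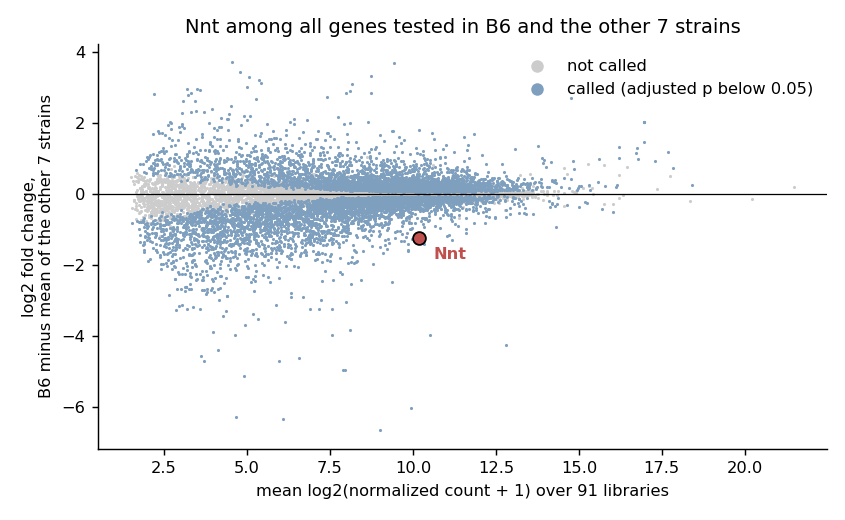
Log2 fold change of B6 minus the mean of the other 7 strains (y axis) against the mean log2(normalized count + 1) over 91 libraries (x axis), 1 point for each of 15204 genes, blue where the adjusted p was below 0.05. Nnt, in red, sits at -1.23 near the lower edge of the genes of its level, while genes with fewer counts reach far lower values.

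By normalized counts B6 and the other strains were not fully apart. The highest B6 library, B6-F-54, had 898.2 normalized counts of Nnt, and 6 of the 73 other libraries (1 each of 129, AJ and WSB and 3 of CAST) lay at or below it. For the sum of both genes 2 libraries did, CAST-F-2 and CAST-M-7. The 3 CAST libraries at or below it are all among the 6 that stood apart in Eno1.

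**Figure D4:**
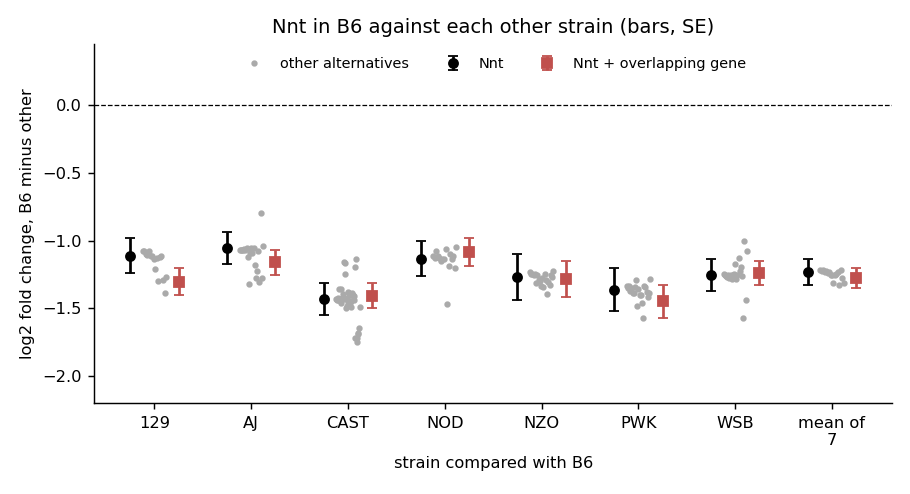
Log2 fold change of Nnt, B6 minus the strain named on the x axis or the mean of the 7, from edgeR (black, bar SE), with the overlapping gene added (red, bar SE) and under every other processing alternative (grey). All points lie below 0, between -1.75 and -0.80.

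Pooled over the 21 pairs of these strains, 51% of tests over all genes were called in either direction. Of the 21 pairs tested by edgeR, 2 passed the threshold for Nnt alone, 129 below CAST (log2 fold change -0.32, SE 0.14, adjusted p = 0.0463) and AJ below CAST (-0.38, SE 0.13, adjusted p = 0.00851). For the sum of both genes 3 pairs passed. AJ stayed below CAST (-0.25, SE 0.10, adjusted p = 0.027), CAST was above NOD (0.32, SE 0.11, adjusted p = 0.00681) and NOD was below PWK (-0.36, SE 0.14, adjusted p = 0.0222), whereas 129 and CAST had an adjusted p of 0.438. The share of all genes called in the same direction was 22.6% for 129 below CAST, 28.5% for AJ below CAST, 30% for CAST above NOD and 25.8% for NOD below PWK. Of the 6 neighbouring pairs in the order by mean TPM, CAST and AJ were the one that passed on the count scale, and the other 5 had edgeR adjusted p-values from 0.168 (AJ and WSB) to 0.546 (129 and NZO). By normalized counts, on which the test ran, CAST was highest and AJ lowest of the strains other than B6. The test therefore does not bear on the steps in mean TPM. That these 5 neighbouring pairs were not called does not show that their levels are alike.

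Leaving out the 6 CAST libraries that stood apart in Eno1 raised the level of CAST. These were picked by Eno1, the gene whose level ran most opposite to that of Nnt, and their median of Nnt is below that of the other 8, so a higher CAST follows from the choice, and the values without them are a description. The mean of CAST was then 22.7 TPM ± 5.04 (SD, n = 8), against 18.7 TPM with them, and 22.8 TPM ± 5.05 (SD, n = 8) with the second gene added. CAST lay above each of the 6 other strains besides B6, by 0.38 (SE 0.15) on the log2 scale over PWK up to 0.70 (SE 0.11) over AJ. All 6 pairs passed in edgeR, where 48.7% of tests over all genes were called in either direction, and nothing is read from these calls. B6 minus CAST was then -1.75 (SE 0.11), and -1.68 (SE 0.07) with the second gene added. B6 minus the mean of the 7 strains was -1.28, against -1.23 with all libraries.

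CAST varied most. The 8 CAST libraries numbered 1 to 8 had a lowest Nnt level of 9.09 TPM, a median of 13.985 TPM and a highest of 27.72 TPM, and the 6 numbered 34 to 39 had 17.98, 23.1 and 28.45 TPM. In normalized counts the means were 1253 ± 493.3 (SD, n = 8) and 2160 ± 107 (SD, n = 6). WSB went the other way, with 19.8 TPM ± 1.19 (SD, n = 7) in the libraries numbered 9 to 16 and 15.5 TPM ± 1.85 (SD, n = 9) in those numbered 40 to 48. The 6 libraries that stood apart in Eno1 are all numbered 2 to 8, while numbers 1 and 6, at 419 and 317 normalized counts of Eno1, lie with those numbered 34 to 39. In B6 the means were 6.90 TPM ± 0.892 (SD, n = 8) and 7.78 TPM ± 1.06 (SD, n = 10). Means of the sum in the lower and the higher range were 7.69 and 7.85 TPM in B6, 20.6 and 20.2 TPM in AJ, 16.4 and 23.1 TPM in CAST and 20.1 and 16.5 TPM in WSB.

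Within each range of numbers B6 was below AJ, CAST and WSB. In libraries 1 to 32 alone the log2 fold change of B6 minus the other strain was -1.31 (SE 0.16) for AJ, -1.19 (SE 0.16) for CAST and -1.57 (SE 0.17) for WSB. In libraries 34 to 65 alone it was -0.80 (SE 0.12) for AJ, -1.72 (SE 0.12) for CAST and -1.001 (SE 0.11) for WSB. The highest of these 6 edgeR adjusted p-values was 6.02e-06 (AJ, libraries 34 to 65), where 20.1% of tests over all genes, pooled over these 6 fits, were called lower in B6, and the difference between the ranges was not tested.

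The overlapping gene took a mean share of 10.1% of the sum in B6 and 8.07% in AJ in libraries 1 to 32, and of 0.767% and 16.9% in libraries 34 to 65. With the second gene added the log2 fold changes in libraries 1 to 32 were -1.28 (SE 0.15) for AJ, -1.14 (SE 0.15) for CAST and -1.44 (SE 0.15) for WSB. In libraries 34 to 65 they were -1.04 (SE 0.08) for AJ, -1.72 (SE 0.08) for CAST and -1.07 (SE 0.07) for WSB. The values for AJ thus lay closer together for the sum than for Nnt alone. Of the 8 CAST libraries in the range 1 to 32, 6 are those apart in Eno1, and with the other 2 alone the log2 fold change for CAST was -1.64 (SE 0.15), and -1.49 (SE 0.10) for the sum.

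No difference between the sexes in Nnt passed on the count scale. The log2 fold change of male minus female over all strains was 0.06 (SE 0.07, edgeR adjusted p = 0.738), where 4.01% of all genes were called, and it ran, within each of the 6 strains other than NZO and PWK, from -0.08 in B6 (SE 0.17) to 0.25 in CAST (SE 0.19), or 0.16 (SE 0.20) in CAST without the 6 libraries apart in Eno1. A test of the strain by sex interaction over these 6 strains had an edgeR adjusted p of 0.922, where 5.9% of all genes were called. For the sum of both genes male minus female was 0.06 (SE 0.06, edgeR adjusted p = 0.678) over all strains and from -0.10 in B6 (SE 0.13) to 0.17 in CAST (SE 0.15) within them, and the interaction had an edgeR adjusted p of 0.893. By TPM, B6 females had 6.71 TPM ± 1.02 (SD, n = 9) and B6 males 8.07 TPM ± 0.580 (SD, n = 9), while NOD females had 19.5 TPM ± 2.26 (SD, n = 5) and NOD males 15.02 TPM ± 3.00 (SD, n = 5). For the sum these means were 7.17 and 8.39 TPM in B6 and 20.1 and 15.04 TPM in NOD.

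The 12 libraries with sex genes opposite to their label are counted here by label. They include NOD-F-100 (22.40 TPM) and NOD-M-97 (20.14 TPM), the highest library of each NOD sex, and none of B6. Without them NOD females had 18.8 TPM ± 1.84 (SD, n = 4) and NOD males 13.7 TPM ± 1.04 (SD, n = 4). The male minus female log2 fold change over all strains was then 0.09 (SE 0.08, edgeR adjusted p = 0.520), and within strains it ran from -0.08 in B6 to 0.27 in 129 (SE 0.34, 2 libraries of each sex). The interaction then had an edgeR adjusted p of 0.840, where 17.6% of all genes were called.

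The acinar share of the library moved with these values. Acinar markers made up on average 13.3% of TPM in B6 females and 3.15% in B6 males, and 6.15% in NOD females and 17.3% in NOD males, and in both strains the sex with more acinar RNA had the lower TPM of Nnt. Over the libraries of a strain, r between the TPM of the sum and the acinar share, which are parts of the same total, was -0.90 in B6 (n = 18) and -0.90 in NOD (n = 10), and between -0.39 and -0.27 in 129, AJ, CAST and WSB. For normalized counts of the sum r was 0.80 in B6 and 0.86 in NOD, 0.33 in CAST, 0.31 in WSB, 0.02 in 129 and -0.04 in AJ. In normalized counts the means were 624 ± 155 (SD, n = 9) in B6 females and 589.2 ± 42.2 (SD, n = 9) in B6 males, and 1262 ± 160 (SD, n = 5) in NOD females and 1403 ± 255 (SD, n = 5) in NOD males, so that both strains turned against their order by TPM. For the sum they were 658.6 and 612.7 in B6 and 1295 and 1404 in NOD. On log2(FPKM + 1) the interaction passed in limma (adjusted p = 0.0361), where 73% of all genes did, and on log2(TPM + 1), where 52.9% of all genes did, it did not (adjusted p = 0.0953). Without the 12 libraries of opposite sex genes these adjusted p-values in limma were 0.0370 and 0.0667, where 78.4% and 72.5% of all genes passed. With the acinar marker level as a covariate in edgeR the interaction had an adjusted p of 0.821 (F = 0.77), where 0.395% of all genes were called. The part of the acinar share in these differences was not tested beyond this covariate. In whole islets, fewer cells that express Nnt and less Nnt RNA per cell cannot be told apart.

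The other genes listed for mitochondrial NADPH, which include Nadk2, a kinase that makes NADP+ and not NADPH, were more often higher than lower in B6 on the count scale. Of 7 listed besides Nnt, 5 were higher and 1 was lower in B6 than in the mean of the other 7 strains, where 25.6% of all genes were higher and 27.6% lower. Their median log2 fold change was 0.17, against -0.01 for all genes. With the immune marker level as a covariate 3 were higher and 1 was lower, where 21.7% of all genes were higher and 23.6% lower. Without the NOD libraries 5 were higher and 2 lower, where 24.4% of all genes were higher and 25.3% lower. In limma on log2(TPM + 1) 2 were higher and 1 lower, where 7.53% of all genes were higher and 35.2% lower and the median of all genes was -0.11. Immune markers (6 genes) had a median of 0.0150% of TPM in NOD and of 0.00110% in B6, and their part in these counts was not tested beyond the covariate.

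Mthfd2, an enzyme of mitochondrial folate metabolism, ran from 23.1 to 64.5 TPM in B6 and from 18.1 to 65.6 TPM in the other libraries, so the groups overlapped. Its log2 fold change was 0.50 (SE 0.08, edgeR adjusted p = 1.02e-07), and it was higher in B6 against 5 of 7 strains, AJ, CAST, NOD, PWK and WSB. Aldh1l2, which oxidizes 10-formyltetrahydrofolate in mitochondria with NADP+, was higher against 4 of 7 strains, with a mean of 0.54 (SE 0.10, edgeR adjusted p = 1.64e-06). Nadk2, the mitochondrial NAD+ kinase, was higher against 4 of 7 (0.27, SE 0.04, edgeR adjusted p = 2.98e-07). Idh2, the mitochondrial isocitrate dehydrogenase, was higher against 2 of 7, and Glud1, glutamate dehydrogenase, was lower against 4 of 7 (-0.12, SE 0.04, edgeR adjusted p = 0.00707). Me3, the mitochondrial malic enzyme, was lower against 3 strains and higher against 2, and its mean did not pass (-0.19, SE 0.10, adjusted p = 0.0996).

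**Figure D5:**
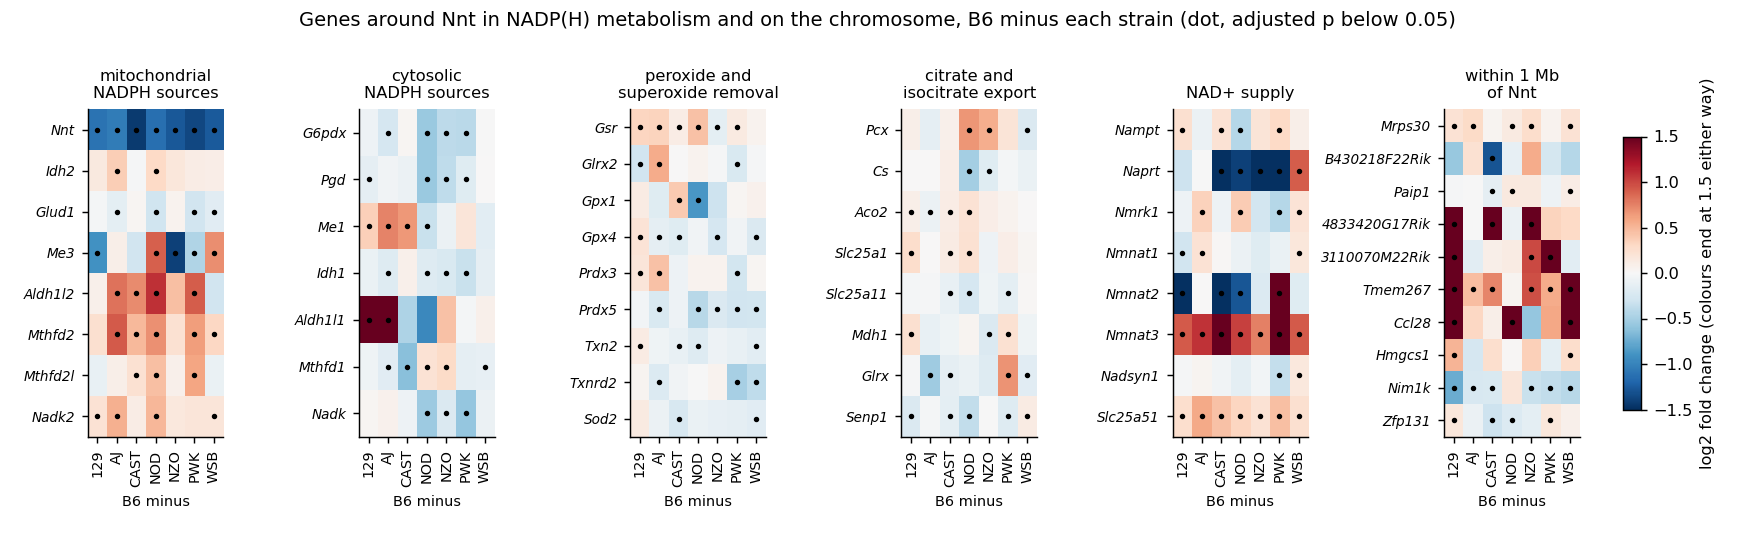
Log2 fold change of B6 minus each other strain (columns) for the genes tested of 5 lists of NADP(H) metabolism and for the genes within 1 Mb of Nnt (rows), in colour from blue (lower in B6) to red (higher in B6). Colours end at 1.5 in either direction, and a dot marks an adjusted p below 0.05. In the whole picture Nnt is the one row that is called lower in all 7 columns, and Nmnat3 and Slc25a51 are called higher in all 7. Against a single strain 21.5% to 34.8% of all genes were called lower in B6 and 15.6% to 29.9% higher. The share of all genes called in all 7 was not counted.

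Of the genes listed for cytosolic NADPH, which include the NAD+ kinase gene Nadk, more were lower, with 4 of 7 lower and 1 higher in B6 than in the mean of the other strains and a median log2 fold change of -0.16, where 27.6% of all genes were lower and 25.6% higher. In limma on log2(TPM + 1) 5 were lower and 0 higher, where 35.2% of all genes were lower and 7.53% higher, and 5 of 7 had an unadjusted p below 0.05, as did 50.8% of all genes. G6pdx, which opens the pentose phosphate pathway, had between 5.33 and 12.5 TPM in B6 and between 6.53 and 26.2 TPM elsewhere. It was lower against 4 of 7 strains, AJ, NOD, NZO and PWK (mean -0.24, SE 0.03, edgeR adjusted p = 1.76e-10). Pgd, the next dehydrogenase of that pathway, was lower against 4 of 7 (-0.20, SE 0.04, edgeR adjusted p = 8.43e-06), and so was Idh1, the cytosolic isocitrate dehydrogenase (-0.16, SE 0.05, edgeR adjusted p = 0.00342). Me1, the cytosolic malic enzyme, was higher against 3 strains and lower against NOD. Aldh1l1, the cytosolic counterpart of Aldh1l2, was higher by 3.40 (SE 0.60, edgeR adjusted p = 1.65e-06) against AJ and by 2.46 against 129, while its mean did not pass (0.70, SE 0.39, edgeR adjusted p = 0.127).

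Of 9 listed genes that remove peroxide and superoxide in mitochondria, 5 were lower and 1 was higher, with a median log2 fold change of -0.10, where 27.6% of all genes were lower and 25.6% higher. With TMM scaling, where 25.3% of all genes were lower and 28.3% higher, 2 were lower and 1 higher, and in limma on log2(TPM + 1) 6 were lower and 0 higher, where 35.2% of all genes were lower and 7.53% higher, and 7 of 9 had an unadjusted p below 0.05 (50.8% of all genes). Prdx5, a peroxiredoxin, was lower against 5 of 7 strains (mean -0.22, SE 0.04, edgeR adjusted p = 4.1e-07), and Gsr, glutathione reductase, which spends NADPH, was higher against 5 and lower against NZO (0.18, SE 0.03, edgeR adjusted p = 2.47e-08). Of 8 genes listed for citrate and isocitrate export and the use of the NADPH it yields in the cytosol, which include the glutaredoxin gene Glrx and the SUMO protease gene Senp1, 3 were lower, Senp1 among them, and 3 higher. In limma on log2(TPM + 1) 3 were lower and 0 higher, with 4 of 8 at an unadjusted p below 0.05, shares close to the 35.2% lower, 7.53% higher and 50.8% at such a p of all genes. With the immune marker level as a covariate none of these 8 passed in edgeR, with 0 of 8 at an unadjusted p below 0.05 (51.5% of all genes), and without NOD 1 was lower and 1 higher, where 25.3% of all genes were lower and 24.4% higher. Pcx, pyruvate carboxylase, was higher against NOD (0.67) and NZO (0.55) and lower against WSB (-0.22).

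Of 8 genes of NAD+ supply 2 were lower and 2 higher, a share close to the 27.6% and 25.6% of all genes. Nmnat3, which makes NAD+ and has been placed in mitochondria, had 2.69 to 7.48 TPM in B6, with a median of 6.24 TPM, and 0.63 to 4.24 TPM with a median of 2.80 TPM in the other libraries. The ranges overlapped, and Nmnat3 was higher in B6 against all 7 strains, with log2 fold changes from 0.75 (NZO) to 2.55 (PWK). Slc25a51, the mitochondrial NAD+ carrier, was also higher against all 7, with smaller log2 fold changes from 0.22 (NZO) to 0.57 (AJ). How many of all genes were called higher against all 7 was not counted. Naprt, which starts NAD+ synthesis from nicotinic acid, was lower against CAST, NOD, NZO and PWK (-2.27 against PWK) and higher against WSB (0.91). Nmnat2 ranged as widely, from -2.38 against 129 to 1.60 against PWK.

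None of the tested genes beside Nnt on chromosome 13 was called lower in B6 against all 7 strains, and the share of all genes called so was not counted. Of 25 other protein-coding genes whose body lies within 1 Mb, 10 had enough counts to be tested, and 5 of these were higher and 1 lower in B6 than in the mean of the other strains, where 25.6% of all genes were higher and 27.6% lower. Paip1, a translation factor that starts 19.6 kb from the start of Nnt, was at 25.6 TPM ± 6.20 (SD, n = 18) in B6 and did not pass against the mean of the other strains (0.03, SE 0.03, edgeR adjusted p = 0.511). Against single strains it was lower than in CAST (-0.14) and higher than in NOD (0.15) and WSB (0.11). Tmem267, 79.04 kb away, ran from 6.29 to 18.8 TPM in B6 and from 2.30 to 15.2 TPM elsewhere, and was higher in B6 against 6 of 7 strains, all but NOD. The chemokine gene Ccl28, 214.8 kb away, was higher against 129 (2.81), NOD (1.72) and WSB (4.39) alone. Nim1k, 346.9 kb away, was lower against 6 of 7 strains, with a log2 fold change of -0.31 (SE 0.06, edgeR adjusted p = 1.67e-05) against their mean.

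The genes whose levels followed Nnt most closely over the 91 libraries were all lower in B6 as well, to different degrees. By Pearson's correlation of log2(normalized count + 1), over libraries that share strains, batches and scaling, these were Gm10073 (r = 0.80), Angptl7 (0.79), Gm6685 (0.79), Eno1b (0.78) and Wdfy1 (0.76). Wdfy1 had 6.29 TPM ± 2.09 (SD, n = 18) in B6 and 11.4 TPM ± 2.94 (SD, n = 73) in the other libraries. Eno1b had 0.358 TPM ± 0.301 (SD, n = 18) in B6 and 38.1 TPM ± 16.1 (SD, n = 73) in the other libraries. The genes least like Nnt were Eno1 (-0.81), Btf3l4 (-0.74), Ints7 (-0.74), Prkcb (-0.69) and Tsga10 (-0.68). Gm10073, Gm6685 and Eno1b share 30.2%, 50.4% and 74.7% of their windows of 100 bases with other genes, and Btf3l4 and Eno1 share 33.96% and 20.4%, and how far their levels depend on the way RSEM divided these reads was not tested. These correlations are with Nnt alone. Over the 73 libraries other than B6 the r of the first 5 with Nnt lay between 0.04 and 0.31, and the 5 genes most like Nnt there were Fkbp11 (0.58), Nomo1 (0.55), Prpsap1 (0.54), Pcca (0.53) and Npas2 (0.52), none of them among the first 5. Eno1 was the gene least like Nnt there too (r = -0.55), and the CAST libraries apart in it are among these 73.

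For scale, the 5 lowest called log2 fold changes of B6 minus the mean of the other strains were those of Eno1b (-6.66), Gm10073 (-6.33), Gm6685 (-6.27), RP23-79J21.3 (-6.04) and Tdrd6 (-5.11), and the 5 highest those of Pttg1 (3.71), Rps18 (3.69), Hamp2 (3.43), Ahcy (3.33) and RP24-258O12.2 (3.31). RP23-79J21.3, Ahcy and RP24-258O12.2 share between 46.3% and 87.0% of their windows with other genes, and Rps18 shares 9.55%. Fitted folds of genes near 0 in a group depend on the prior count and are no bounds. Nnt, at -1.23, kept a mean of 7.39 TPM in B6.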

How the data were processed

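Whole-islet RNA from 8 inbred strains was sequenced as 91 libraries in 16 strain and sex groups, each deposited table being taken as 1 library. Whether each library is a separate mouse is not stated, so p-values measure the spread between libraries. Per the labels, reads were quantified with RSEM on mm10 (its version is not given in the sources used here), and the authors deposited expected counts, TPM, FPKM and transcript length for each gene. The deposited FPKM and TPM are scaled for length and depth, and the deposited expected counts are not scaled. Gene positions came from GENCODE M21, to which 54079 of 54146 gene identifiers matched.

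Kept were protein-coding genes of the autosomes and chromosome X (21710), without those at or below the 10% point of the variance, ties at that point included (19370) and with a count in at least 85% of libraries (15204). These are the filters the study describes, applied to unscaled counts and with biotypes from GENCODE M21, where the study used vm18, so the gene set need not be the study's. Rounded expected counts were tested with edgeR 4.0.16 (upper quartile, quasi-likelihood, strain and sex, Benjamini-Hochberg, 0.05), and TPM by permutation. On simulated counts for B6 against the other 7 strains (15204 genes, 200 changed), 97% of genes changed by 1 on the log2 scale and 82% of those changed by 0.5 were recovered, with 12 false calls. The simulated counts held no other difference between strains or sexes, whereas the strain F test called 97.4% of genes in these data. These shares need not hold for the data. Alternatives used DESeq2 1.42.0, limma 3.58.1 (pseudocounts of 1 and 0.1) and sva 3.50.0. Named genes were Nnt, 39 genes of 5 lists, all within 1 Mb, the 5 most and least like Nnt, and the 5 lowest and highest in B6, besides the 4 named as chosen later. The gene and the lists were chosen with earlier results of these data known. Exons deleted in B6 and the Nnt protein sequence were not analysed here. The sum with the overlapping gene, the fits without each CAST library or without the 6 that stand apart in Eno1, the limma interaction without the libraries of opposite sex genes and, for the lists, the marker covariates, the other scales and the fit without NOD were chosen after seeing the data.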

Additional observations from a re-analysis of the deposited data

Results flagged for a closer look

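In groups of 4 to 10 libraries the highest or lowest value was set against the rest by Dixon's ratio at the 95% level, for Nnt and its sum with the overlapping gene, each in TPM and normalized counts. Of 68 combinations in 17 overlapping groups 4 stood out, and chance alone picks about 1 in 20. In B6 females, B6-F-56 had 8.99 TPM of Nnt, the next library 7.17. In WSB females, WSB-F-46 had 11.19 TPM, the next 16.21, and 27.99% of its summed count went to the overlapping gene. In PWK males, PWK-M-69 had 17.1 TPM, the lowest of 4 and below 22.07, while its sum in normalized counts, 1943, was the highest of the 4, above 1759. This library had the largest acinar share of PWK, 26.6% of TPM.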

How the results depend on the processing

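Nnt kept its direction and its call in all 180 alternatives of the 8 contrasts of B6, with log2 fold changes from -1.75 to -0.80 and a highest adjusted p of 3.98e-05. Leaving out 1 library at a time gave -1.32 to -1.22 for NZO, -1.42 to -1.28 for PWK and -1.497 to -1.38 for CAST. On log2(FPKM + 1) in limma the strain by sex interaction passed (F = 2.74, adjusted p = 0.0361, against F = 0.40 in edgeR), also without the libraries of opposite sex genes (F = 2.70), on a scale where 73% of all genes passed. The order of strains by mean TPM held at 2 of 8 places by normalized counts, 4 by medians and 6 with the overlapping gene added. Counts of all genes called moved more. With libraries summed per sample, and so fewer samples, they were 2296 for 129 (of 6169), 2493 for AJ (of 6926), 3517 for CAST (of 7423), 3220 for WSB (of 7564) and 3888 for the mean of the 7 (of 8086). For log2(TPM + 1), log2(TPM + 0.1) and log2(FPKM + 1) in limma they were 4443, 4721 and 4279 for CAST, 2958, 3254 and 3211 for NZO (of 5652), and 4252, 4526 and 4491 for WSB, and log2(FPKM + 1) gave 4514 for PWK (of 7528). In libraries 1 to 32 without the 6 CAST libraries apart in Eno1, and so with 2 of CAST, CAST had 4159, against 6510 in that range with all of CAST. Without the libraries whose sex genes were opposite to their label 129 had 3839, and with the immune marker level as a covariate NOD had 4823 (of 9838). The cause of these moves was not tested. On the TPM and FPKM scales the median of all genes for B6 minus the mean of the 7 shifted by -0.13 to -0.11, and Nnt lay at -1.19 to -1.11 relative to it, against -1.22 in edgeR. Against 129 the median itself was -0.32 to -0.25 (edgeR -0.03) and against AJ -0.21 to -0.16 (edgeR 0.01), with Nnt at -1.06 to -1.02 relative to it in both. The share of calls that were lower rose on log2(TPM + 1) from 58.7% to 92.5% against 129, from 47.3% to 82.4% against AJ, from 53.8% to 67.4% against NOD, from 57.98% to 80.3% against NZO and from 53.3% to 79.5% against PWK, and fell from 48.5% to 33.7% against CAST. Against WSB it was 67% on log2(FPKM + 1), from 49.8%. The genes most like Nnt by Spearman's rho or outside B6 shared 0 of 5 with those by Pearson's r. No paired analysis was possible because the labels give no replicate number that groups share.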

Other observations

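The depth left little counting error in Nnt, and what limits the values is the annotation and the sampling. The reference holds the B6 form of the gene, so the RNA of the exons that B6 lacks was not measured in any strain. The split of reads with the overlapping gene moves Nnt alone by up to 49.7% of the sum in 1 library. NZO has 4 libraries and PWK has 5. For 129, NOD, NZO and PWK the strain cannot be told apart from the range of library numbers.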
